A study of Drosophila melanogaster with 4 samples.

Results

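This comparison sets wing discs that received extra Taiman (Tai) on top of Yorkie (Yki) against wing discs that received Yki alone, in 1 pooled RNA-seq library of each genotype. Of the 13990 genes in the deposited table, 317 small-RNA genes were set aside and 5869 had a mean under 1 FPKM over the 4 libraries, which left 7804 genes. FPKM is the number of sequenced fragments per kilobase of transcript, scaled to the size of the library. The difference of a gene is its log2(FPKM + 1) in Yki+Tai minus its log2(FPKM + 1) in Yki, and a gene was counted as higher or lower when that difference reached 1 in size, which is called 2-fold below. Adding 1 understates the change of genes at low levels.

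Tissue came from Drosophila melanogaster at the third larval instar, reared at 25 °C, and each library holds 80 to 100 wing imaginal discs, the larval epithelia from which wing and notum develop. The Yki+Tai library carried GFP, Yki and Tai under the engrailed (en) driver, and the Yki library carried GFP and Yki. A GFP library, with the driver and GFP alone, is given beside each gene, and a Yki+Tai-IR library, with GFP, Yki and, by its label, an inverted-repeat construct against tai, is given where it adds something. Larvae were picked by their GFP fluorescence. The en driver is active in the posterior compartment, so each pool mixes posterior cells that carry the transgenes with anterior cells that do not. The protocol text attached to the libraries spells out just the GFP and the Tai genotypes, so nothing further is known of how the Yki pools were collected. Each genotype has 1 library, so none of the differences has a replicate check, and the values describe these libraries alone.

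Yki is the transcriptional coactivator that the Hippo kinase pathway holds out of the nucleus; when released it partners DNA-binding proteins such as Scalloped and turns on genes for growth and survival. Tai is a coactivator of the steroid receptor family's p160 type, which binds the ecdysone receptor and helps it activate the genes that carry a larva toward metamorphosis. The study asks how Tai acts on the growth and the gene expression that Yki drives.

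Estimated depth, in M (mega) fragments, was 12.5 for Yki+Tai, 9.54 for Yki, 8.05 for GFP and 8.31 for Yki+Tai-IR. Levels of 0.134 FPKM in Yki+Tai and 0.176 FPKM in Yki equal 3 fragments for a 2 kb transcript, so lower values are not resolved. Ratios carry 95% exact Clopper-Pearson intervals on the estimated fragments, which cover counting error only. The Tai and Yki transgenes showed in their libraries, with tai at 1260.3 FPKM in Yki+Tai, versus 25.0 in Yki and 27.1 in GFP, and yki at 4535 FPKM in Yki+Tai, compared with 5034 in Yki and 71.5 in GFP. The library labelled Yki+Tai-IR had tai at 22.9 FPKM, little under Yki and GFP, and yki at 2563 FPKM. Anterior cells without the transgenes are part of each pool, so this level of tai can neither bear out nor refute the label. Values of this library are given as those of the library so labelled. Wing disc genes were present in every library: across all 4 libraries vg, nub, ap, en, wg and Dll lay between 23.9 and 118 FPKM. The library kit does not mark strand, so overlapping genes, and near-identical copies in families, may have traded fragments.

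Added Tai left most genes within 2-fold. Among 7804 genes, those past 2-fold upward in Yki+Tai numbered 269 (3.45%) and those past it downward 164 (2.1%), 5.55% in either direction, and the median difference over all genes was -0.0017. The higher genes had a median level of 9.46 FPKM in Yki+Tai, versus 1.95 in Yki and 3.08 in GFP. The lower genes had a median of 3.30 FPKM in Yki+Tai, compared with 12.3 in Yki and 13.6 in GFP. Most of the higher genes thus stood at a low level in Yki, and 22 of them were listed at 0 there, while 18 of the lower genes were listed at 0 in Yki+Tai. Fewer than 50 estimated fragments lay behind both values in 56 of the higher and 54 of the lower genes. At 10 FPKM or more in both libraries there were 51 higher and 55 lower genes among 5890. At the edge of the limit, pug was just inside at a difference of 1.00 and Reg-5 just outside at 0.997 on the higher side. On the lower side ox was just inside at -1.0007 and CG34163 just outside at -0.993.

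**Figure D1:**
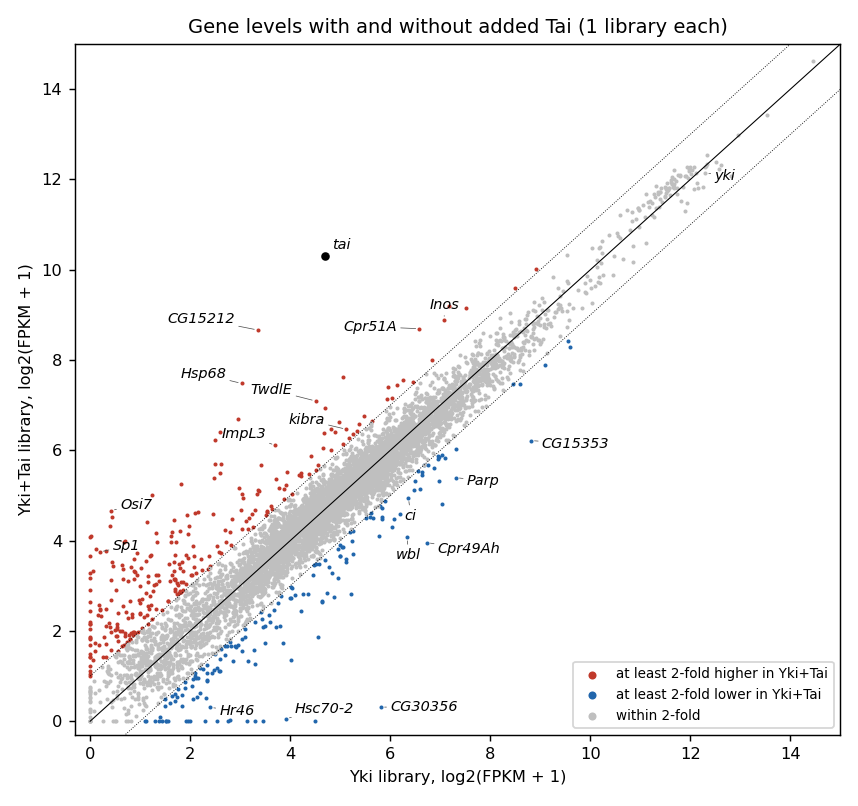
Level of each of 7804 genes in the Yki+Tai library (y axis) against the Yki library (x axis), both in log2(FPKM + 1), 1 library each. Each point is a gene; dotted lines mark 2-fold, and the 269 higher and 164 lower genes lie outside them, with tai farthest above.

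Among the genes abundant in both libraries, those with the highest differences encode secreted proteins, metabolic enzymes and chaperones as well as cuticle proteins. Spn100A, a gene of the serpin family of protease inhibitors (chromosome 3R, 30690642 to 30692768 in dm6), stood at 197 FPKM in Yki+Tai, versus 32.1 in Yki and 74.7 in GFP, a ratio of Yki+Tai to Yki of 6.12 (interval 5.61 to 6.70). The secreted glycoprotein gene ana, known for holding neuroblasts at rest (chromosome 2R, 9062295 to 9077554), was at 122 FPKM in Yki+Tai, compared with 25.0 in Yki and 31.3 in GFP. The inositol phosphate synthase gene Inos (chromosome 2R, 7454922 to 7458874) reached 473 FPKM in Yki+Tai, versus 134 in Yki and 68.1 in GFP. In the Yki+Tai-IR library the same 3 genes stood at 32.7, 11.6 and 59.1 FPKM, below or near their level in Yki. TwdlE, ImpL3, Cpr51A, Hsp26, stv and CG5758 complete the 10 highest of these abundant genes together with tai. CG5758 was at 82.3 FPKM in Yki+Tai, compared with 24.7 in Yki and 47.4 in GFP, and stv, a cochaperone of Hsc70, was at 87.7, against 27.0 in Yki and 41.4 in GFP. In Yki+Tai-IR, Cpr51A, TwdlE and CG5758 stood below Yki, at 33.9, 7.70 and 20.2 FPKM, while stv, ImpL3 and Hsp26 stood above it, at 114.5, 48.2 and 1064 FPKM.

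The highest differences over all genes belonged to genes at low levels in Yki. After tai itself came CG15212 (chromosome 3L, 5131545 to 5132127), at 405 FPKM in Yki+Tai, versus 9.21 in Yki, 15.8 in GFP and 10.1 in Yki+Tai-IR; its ratio to Yki was 44.0 (interval 29.0 to 73.9). Its neighbour CG15213 was at 31.3 FPKM in Yki+Tai, compared with 1.37 in Yki, and was listed at 0 in GFP. No role is given to either gene in the sources used here. CG16704 was at 84.0 FPKM in Yki+Tai, versus 5.07 in Yki and 2.00 in GFP, and CG6912 at 22 FPKM, against 0.349 in Yki and 1.45 in GFP. Acp98AB, at 15.9 FPKM in Yki+Tai, was listed at 0 in Yki, in GFP and in Yki+Tai-IR, and its annotated transcript of 175 nt is shorter than the 212 nt subtracted from transcripts in the depth estimate, so it has no estimated fragments. CG42456 appears among the 10 highest, at 16.3 FPKM in Yki+Tai, compared with 0.00633 in Yki and 12.4 in GFP, but it shares its annotated span on chromosome 3L, 3319555 to 3322489, with CG12016. CG12016 went the other way, at 11.5 FPKM in Yki+Tai, versus 31.0 in Yki and 11.3 in GFP, so the division of fragments between the pair is uncertain.

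Of the abundant genes with the lowest differences, several were also far from their level in GFP. CG15353 was at 73.4 FPKM in Yki+Tai, compared with 449 in Yki and 1197 in GFP, and wbl, an endoplasmic reticulum protein of the disulfide isomerase family, was at 15.9 FPKM, against 79.8 in Yki and 142 in GFP. The odorant-binding protein gene Obp56a was at 27.1 FPKM in Yki+Tai, versus 130 in Yki and 95 in GFP. Pepck, the enzyme that starts gluconeogenesis, was at 39.0 FPKM in Yki+Tai, compared with 125 in Yki and 118 in GFP. Both Cpr49Ah (14.5 FPKM in Yki+Tai, versus 105 in Yki and 21.3 in GFP) and Parp (41.1 FPKM, against 158 in Yki and 48.7 in GFP) instead stood near GFP in Yki+Tai and far above it in Yki. Parp encodes poly(ADP-ribose) polymerase, and its ratio to Yki was 0.260 (interval 0.245 to 0.276).

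The lowest differences over all genes include several that sit near 0 in the Yki+Tai library and at a like level in Yki and GFP. CG30356 (chromosome 2R, 8728964 to 8729501) was at 0.242 FPKM in Yki+Tai, compared with 55.3 in Yki and 58.1 in GFP, and at 1.45 FPKM in Yki+Tai-IR; it overlaps gcl on the other strand, so its fragments are uncertain. Hsc70-2, a member of the Hsp70 family (chromosome 3R, 13044759 to 13047388), was at 0.0405 FPKM in Yki+Tai, versus 14.1 in Yki and 14.2 in GFP, with 0.0608 in Yki+Tai-IR. The gene next to it, CG31157, was listed at 0 in the Yki+Tai library, likewise in Yki+Tai-IR, with 8.81 FPKM in Yki and 7.56 in GFP. CG42637 was at 0.0188 FPKM in Yki+Tai, compared with 5.97 in Yki and 8.02 in GFP, with 0.0161 in Yki+Tai-IR, and CG12519 was listed at 0 in Yki+Tai and again in Yki+Tai-IR, with 5.72 FPKM in Yki and 5.93 in GFP. These 5 genes thus stood at or under 1.45 FPKM both in the library with added Tai and in the library labelled Yki+Tai-IR, and at 5.72 FPKM or more in Yki and GFP. Others of the 10 lowest, CG34446, CG42372 and CG42680, were listed at 0 in Yki+Tai and also in GFP. They were at 21.7, 9.94 and 7.81 FPKM in Yki and at 74.6, 1.95 and 0 in Yki+Tai-IR.

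Among Yki target genes, kibra passed 2-fold with added Tai and the others did not. Of the 19 measured, 1 (5.26%, against 3.45% of all genes) was higher and 0 were lower; 15 differences were above 0 and 4 below, with a median of 0.29. The median transcript of these genes is 3719 nt, and among arm genes with transcripts of 3040 nt or more 59.5% of differences were above 0; the part of length was not tested. The member past 2-fold was kibra, an upstream activator of the Hippo kinases and itself a Yki target, at 87.4 FPKM in Yki+Tai, versus 33.8 in Yki and 14.1 in GFP, a ratio to Yki of 2.58 (interval 2.44 to 2.73). The growth regulator genes jub, Mer and crb, which act at the apical junction, were at 53.3, 33.0 and 82.5 FPKM in Yki+Tai, compared with 37.1, 23.6 and 63.5 in Yki and 50.2, 30.2 and 70.6 in GFP. Their Yki values lie under GFP, and their Yki+Tai values exceed GFP by little. The Hippo pathway list shares kibra, wts, ex, jub, Mer, crb and fj with the Yki target list. It had 23 of 32 members above 0 and a median of 0.18. In that list CG10741, at 89.5 FPKM in Yki+Tai, versus 46.4 in Yki and 72.1 in GFP, and the atypical myosin gene d (dachs), at 203.5, against 127 in Yki and 160 in GFP, were among the highest after kibra. The polarity gene l(2)gl was at 87.9 FPKM in Yki+Tai, compared with 138 in Yki and 87.6 in GFP. CG14059, which encodes the growth-delay peptide Ilp8, hardly differed, at 30.9 FPKM in Yki+Tai, versus 26 in Yki, with 0.188 in GFP.

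In the JNK and wound response list scaf, at 83.7 FPKM in Yki+Tai, versus 28.6 in Yki and 32.6 in GFP, and Thor, at 44.5 FPKM, against 17.7 in Yki and 14.1 in GFP, passed 2-fold upward. They are 2 of 26 measured (7.69%, against 3.45% of all genes), 0 passed it downward, 20 differences were above 0, and the median was 0.22. The AP-1 subunit genes Jra and kay were at 97.6 and 69.1 FPKM in Yki+Tai, compared with 59.4 and 42.7 in Yki and 58.2 and 42.4 in GFP. The pathway's phosphatase and feedback gene puc was at 27.5 FPKM in Yki+Tai, versus 19.1 in Yki and 17.3 in GFP, a ratio to Yki of 1.44 (interval 1.28 to 1.62). The ligand gene egr, at 2.76 FPKM in Yki+Tai, compared with 3.18 in Yki and 6.64 in GFP, and the kinase gene bsk, at 59.7, against 89 in Yki and 71.6 in GFP, had differences below 0. In the list of basement membrane, integrin and metalloprotease genes 18 of 22 members were above 0, with a median of 0.40. At least 2-fold higher were 2 (9.09%, against 3.45% of all genes), and 0 were lower (against 2.1%). Timp, the inhibitor of metalloproteases, was at 11.6 FPKM in Yki+Tai, versus 4.17 in Yki and 6.96 in GFP, and the proteases Mmp1 and Mmp2 were at 54.9 and 18.0 FPKM, against 38.2 and 10.9 in Yki and 33.9 and 16.4 in GFP. The integrin genes mys, if and scb were at 107, 36.2 and 25.0 FPKM in Yki+Tai, compared with 78.6, 23.7 and 16 in Yki and 79.8, 18.4 and 20.8 in GFP. The other gene of this list past 2-fold, the peroxidase gene Pxn, is also a blood cell marker.

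Of the lists examined, cuticle protein genes held the most higher genes. The deposited values cover 123 cuticle genes, of which 39 were measured. Of these 23 (59.0%, against 3.45% of all genes) were past 2-fold upward in Yki+Tai and 4 (10.3%, against 2.1%) downward. The median was 1.12. Of the 39, 8 reached the mean of 1 FPKM only through Yki+Tai; over the 92 with any FPKM above 0, 29 were higher and 5 lower, with a median of 0.34. The most abundant of the higher ones were Cpr51A, at 413 FPKM in Yki+Tai, versus 94.7 in Yki and 34.7 in GFP, and TwdlE, of the Tweedle family, at 135 FPKM, against 21.8 in Yki and 9.58 in GFP. Cpr100A was at 15 FPKM in Yki+Tai, compared with 0.625 in Yki and 0.529 in GFP, and Cpr47Eb at 10.4 FPKM, against 0.346 in Yki and 1.64 in GFP. These exceed both other libraries. Elsewhere the Yki library was the low one: Cpr12A was at 98.1 FPKM in Yki+Tai, versus 30.4 in Yki and 74.6 in GFP, and Lcp1 at 5.45 FPKM, against 0.972 in Yki and 30.0 in GFP. Of the 4 lower ones, Cpr49Ag was at 5.32 FPKM in Yki+Tai, compared with 23.7 in Yki and 71.6 in GFP, and it lies beside Cpr49Ah. Cpr64Aa was at 6.06 FPKM, against 36.4 in Yki and 34.5 in GFP. Over the whole list the summed level was 1086 FPKM in Yki+Tai, versus 539 in Yki, 642 in GFP and 448 in Yki+Tai-IR. With members under 50 estimated fragments in both libraries left out, 13 were higher.

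**Figure D2:**
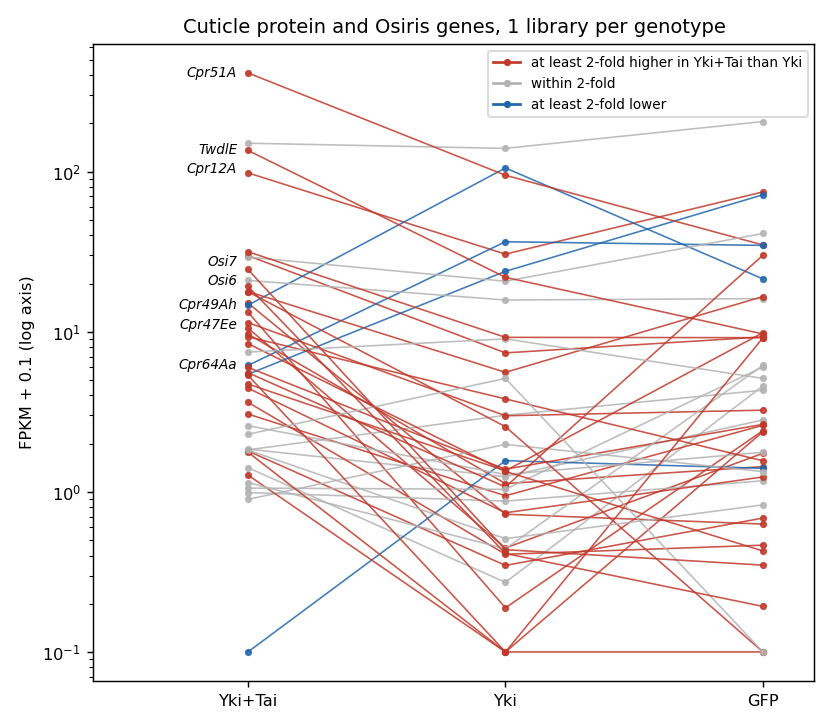
FPKM + 0.1 (log axis) of the 39 measured cuticle protein genes and 5 measured Osiris genes in the Yki+Tai, Yki and GFP libraries, 1 library each; a line joins the values of a gene. Cpr51A reached 413 FPKM and TwdlE 135 FPKM in Yki+Tai, while Cpr49Ah was at 14.5 FPKM there and at 105 FPKM in Yki.

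Osiris genes, a family of transmembrane protein genes clustered on chromosome 3R and active where cuticle is laid down, were mostly under the filter, with 5 of 23 measured. Of these 3 were at least 2-fold higher (3.45% of all genes were), but 2 of the 5 reached the mean of 1 FPKM only through Yki+Tai. Over the 14 Osiris genes with any FPKM above 0, 5 were higher and 0 lower, with a median of 0.13. Osi7 was at 24.4 FPKM in Yki+Tai, compared with 0.335 in Yki and 0.248 in GFP, Osi6 at 19.1 FPKM, against 0.312 in Yki and 0.0925 in GFP, and Osi2 at 31.5 FPKM, against 9.12 in Yki and 9.08 in GFP. The same 3 genes were at 1.64, 1.17 and 4.87 FPKM in Yki+Tai-IR. Genes that make or trim chitin moved less: of 26 measured, 16 were above 0, and the median was 0.39. Past 2-fold upward were 3 (11.5%, against 3.45% of all genes) and downward 1 (3.85%, against 2.1%). The chitinase genes Cht5 and Cht2 were at 95.3 and 255 FPKM in Yki+Tai, versus 40.8 and 113 in Yki and 47.3 and 130 in GFP. The chitinase gene Cht7 was lower, at 6.2 FPKM in Yki+Tai, compared with 25.7 in Yki and 18.0 in GFP. The chitin synthase gene kkv was at 100.3 FPKM in Yki+Tai, versus 78.7 in Yki and 86.9 in GFP, and mmy, which makes the UDP-N-acetylglucosamine that the synthase uses, was at 40.8 FPKM, against 20.1 in Yki and 21.5 in GFP.

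Ecdysone-response genes had no common direction. Of 37 measured, 19 were above 0 and 18 below, and the median was 0.0078. At least 2-fold higher were 6 (16.2%, against 3.45% of all genes), and 3 (8.11%, against 2.1%) were lower. Of the 37, 2 reached the mean of 1 FPKM only through Yki+Tai. Over the 40 with any FPKM above 0, 7 were higher and 3 lower, with a median of 0.0039. The 6 higher of the 37 are late or tissue genes: Edg84A, Edg78E, Edg91, ImpL3, ImpL1 and Cyp18a1. The Edg genes encode cuticle proteins and were counted in the cuticle list as well. ImpL1 was at 7.16 FPKM in Yki+Tai, compared with 1.43 in Yki and 4.39 in GFP. The lower members are transcription factors of the early and middle response. Hr4 was at 1.53 FPKM in Yki+Tai, versus 6.27 in Yki and 16.9 in GFP, Hr46 at 0.236 FPKM, against 4.28 in Yki and 14 in GFP, and Blimp-1 at 3.82 FPKM, against 9.75 in Yki and 17.0 in GFP. For these 3 genes the Yki library lay between the other libraries, and Yki+Tai was the lowest of the 4, with Yki+Tai-IR at 4.75, 3.76 and 5.29 FPKM. The disc evagination genes ImpE1 and ImpE2 were at 92.2 and 1286 FPKM in Yki+Tai, compared with 47.7 and 736 in Yki and 122 and 1636 in GFP. The receptor gene EcR was level, at 43.2 FPKM in Yki+Tai, versus 42.9 in Yki and 35.2 in GFP.

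Patterning genes of the wing disc had differences on both sides of 0 in each region, against 3914 of 7804 below 0 over all genes. Among 12 hinge genes 8 were below 0, with a median of -0.36, and 2 (16.7%, against 3.45% of all genes) were at least 2-fold higher. The homeobox genes hth and exd, partners that specify the proximal wing, were at 138 and 153 FPKM in Yki+Tai, compared with 217 and 219 in Yki and 159 and 179 in GFP. The member dve, a homeobox gene of the inner hinge and pouch, was at 99.3 FPKM in Yki+Tai, versus 48.7 in Yki and 36.1 in GFP, and nab, a cofactor gene expressed beside it, at 63.6 FPKM, against 35.1 in Yki and 21.7 in GFP. The 16 notum genes had 9 members below 0 and a median of -0.29, with ap at 68.0 FPKM in Yki+Tai, compared with 118 in Yki and 99.3 in GFP, and eyg at 4.98 FPKM, against 9.16 in Yki and 16.7 in GFP. Pax gene toe was the exception past 2-fold, at 29.2 FPKM in Yki+Tai, versus 13.7 in Yki and 15.2 in GFP. The 22 wing pouch genes had 13 members below 0 and a median of -0.073. The proneural genes ac and sc, which start sensory organs, were at 5.65 and 6.03 FPKM in Yki+Tai, compared with 15.1 and 18.0 in Yki and 33.3 and 41.8 in GFP, and their antagonist emc was at 159.6 FPKM, against 305 in Yki and 357 in GFP. The posterior compartment genes inv, en and hh were at 81.8, 63.2 and 50.4 FPKM in Yki+Tai. In Yki they were at 37.2, 32.6 and 37.8 FPKM, and in GFP at 39.0, 43.2 and 39.8. The anterior gene ci was at 29.8 FPKM in Yki+Tai, versus 81.3 in Yki and 128 in GFP. For ptc the levels were 19.9 FPKM in Yki+Tai, 21.5 in Yki and 54.0 in GFP. The part of the mix of compartments in these values was not tested. In bulk tissue, fewer cells of a type and less RNA per cell cannot be told apart, here and throughout.

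Signalling lists held few genes past 2-fold, and their shares are given beside those of all genes. Of 22 Dpp genes 1 was higher (4.55%, against 3.45% of all genes), and 15 differences were above 0. It was sog, which encodes an extracellular BMP antagonist, at 69.7 FPKM in Yki+Tai, versus 32.3 in Yki and 25.9 in GFP. The ligand gene gbb was at 173 FPKM in Yki+Tai, compared with 109 in Yki and 156 in GFP, and brk, the repressor of Dpp targets, at 66.3 FPKM, against 50.04 in Yki and 37.2 in GFP. The Wnt list of 29 genes held 2 past 2-fold upward (6.90%) and 1 downward (3.45%, against 2.1% of all genes). CG3074, which encodes the Wingless carrier Swim, was at 7.90 FPKM in Yki+Tai, versus 2.23 in Yki and 5.43 in GFP, and Wnt2 at 23.8 FPKM, against 10.7 in Yki and 40.6 in GFP. The ligand gene wg itself was at 25.7 FPKM in Yki+Tai, compared with 40.3 in Yki and 38.2 in GFP. Of 32 Notch pathway genes 0 were higher and 1 (3.1%, against 2.1% of all genes) lower. It was m6, at 3.27 FPKM in Yki+Tai, versus 12.2 in Yki and 18.5 in GFP. The JAK-STAT list held 1 higher gene among 11 (9.09%, against 3.45% of all genes). This gene, lama, was at 24.3 FPKM in Yki+Tai, compared with 10.7 in Yki and 13.8 in GFP.

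**Figure D3:**
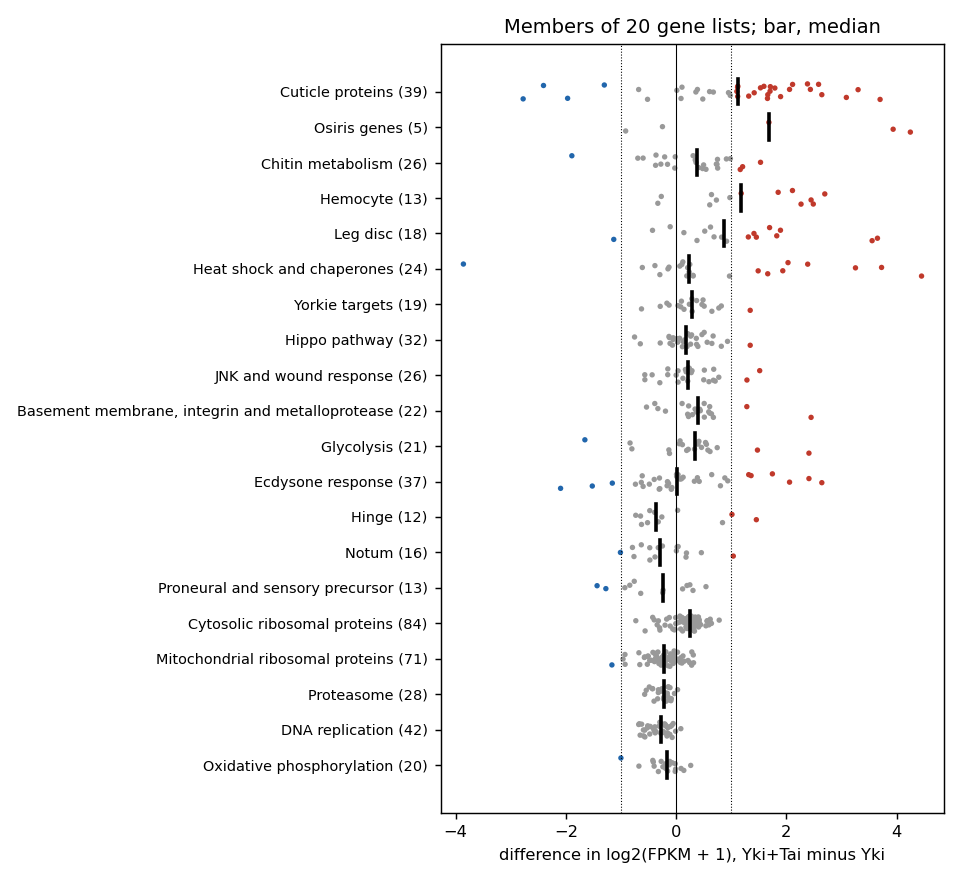
Difference in log2(FPKM + 1), Yki+Tai minus Yki, for each measured member of 20 gene lists (number measured in brackets); points past 2-fold are coloured, dotted lines mark 2-fold and thick bars mark list medians. The cuticle list (median 1.12) and the hemocyte list (1.18) lie to the right, and the DNA replication list (-0.27) and the proteasome list (-0.22) lie to the left of 0 with no member past 2-fold.

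Machinery genes had small differences, on opposite sides of 0 by list. Of 42 DNA replication genes 41 were below 0, with a median of -0.27 and 0 past 2-fold. The replication clamp gene mus209 (PCNA) was at 276 FPKM in Yki+Tai, versus 385 in Yki and 413 in GFP, and the ribonucleotide reductase subunit gene RnrL at 92.6 FPKM, against 140.1 in Yki and 116 in GFP. The helicase genes Mcm2 and Mcm6 were nearly level, at 70.7 and 89.2 FPKM in Yki+Tai, compared with 74.4 and 92.6 in Yki and 67.9 and 90.6 in GFP. Proteasome genes were below 0 in 27 of 28 cases, with a median of -0.22, and their summed level was 4281 FPKM in Yki+Tai, versus 5072 in Yki and 6093 in GFP. The lid subunit gene Rpn5 was lowest, at 124 FPKM in Yki+Tai, compared with 185 in Yki and 193 in GFP. Mitochondrial ribosomal protein genes had 58 of 71 members below 0 and a median of -0.21. At least 2-fold lower was 1 (1.41%, against 2.1% of all genes). This was mRpL55, at 39.1 FPKM in Yki+Tai, versus 88.9 in Yki and 67.3 in GFP. Oxidative phosphorylation genes had 17 of 20 below 0 and a median of -0.17.

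Cytosolic ribosomal protein genes ran the other way, with 67 of 84 above 0, a median of 0.25 and 0 past 2-fold. RpL24 was at 2368 FPKM in Yki+Tai, compared with 1542 in Yki and 1822 in GFP, RpL4 at 3261 FPKM, against 2199.6 in Yki and 2564 in GFP, and RpL32 at 4744 FPKM, against 3261 in Yki and 4095 in GFP. In these 3 genes Yki lay below both Yki+Tai and GFP. Of the 17 members below 0, 5 lie on chromosome 4 or near a centromere: RpL38, RpS3A, RpL21, RpL15 and RpL5. RpL38 was the lowest, at 4331 FPKM in Yki+Tai, versus 7187 in Yki and 4659 in GFP, and RpS3A stood at 3647 FPKM, against 4895 in Yki and 3677 in GFP. Transcript length moved with the differences over all genes, and its part in these lists was not tested. On the chromosome arms the median difference was -0.092 over 1851 genes with transcripts of up to 1209.5 nt and 0.083 over 1857 genes with transcripts of 3040 nt or more. The median transcript was 2066 nt for the replication list, 739 nt for the mitochondrial ribosomal list and 708 nt for the cytosolic ribosomal list.

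In central metabolism most differences of glycolysis genes were above 0. Of 21 measured, 16 were above 0 with a median of 0.33. At least 2-fold higher were 2 (9.52%, against 3.45% of all genes), and 1 (4.76%, against 2.1%) was lower. ImpL3, lactate dehydrogenase, was at 68.1 FPKM in Yki+Tai, compared with 12.0 in Yki and 9.63 in GFP, a ratio to Yki of 5.67 (interval 4.72 to 6.84). The trehalose transporter gene Tret1-1 was at 9.07 FPKM in Yki+Tai, versus 2.62 in Yki and 1.01 in GFP, and the phosphofructokinase gene Pfk at 63.5 FPKM, against 41.1 in Yki and 58.1 in GFP. Pepck was the lower one, and fbp, fructose-1,6-bisphosphatase of the same opposing pathway, was at 19.9 FPKM in Yki+Tai, compared with 36.3 in Yki and 53.2 in GFP. Treh, the enzyme that splits trehalose, was at 11.6 FPKM in Yki+Tai, versus 20.9 in Yki and 21.6 in GFP. In the insulin and TOR list 1 of 26 genes (3.85%, against 3.45% of all genes) was higher, Thor, and 2 (7.69%, against 2.1%) were lower. The lower ones were the amino acid transporter gene path, at 45.3 FPKM in Yki+Tai, compared with 93.2 in Yki and 76.7 in GFP, and Ilp6, at 0.938 FPKM, against 3.31 in Yki and 2.33 in GFP.

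Markers of other cell types and of stress also differed between the pools. Among 13 measured hemocyte markers, genes of the larval blood cells, 7 (53.8%, against 3.45% of all genes) passed 2-fold upward in Yki+Tai. Downward 0 passed it (against 2.1% of all genes), and the median was 1.18. Of the 13, 4 reached the mean of 1 FPKM only through Yki+Tai, so the filter in part fixes this count. Over the 20 markers with any FPKM above 0, 7 were higher and 0 lower, with a median of 0.77. The defining markers Hml, nimC1, Pxn and He were at 4.29, 7.70, 9.0 and 6.38 FPKM in Yki+Tai, versus 0.467, 0.341, 0.832 and 2.25 in Yki and 0.842, 0.539, 3.17 and 2.67 in GFP. Of all 21 listed markers 1 was at 0 in Yki+Tai and 4 in Yki. Summed over the list the level was 166 FPKM in Yki+Tai, compared with 117 in Yki, 133 in GFP and 129 in Yki+Tai-IR. The immune receptor gene PGRP-LC, which blood cells also express, was at 8.43 FPKM in Yki+Tai, versus 1.55 in Yki and 4.55 in GFP. Collagen genes of the basement membrane list, Cg25C and vkg, are blood cell products too, and stood at 18.7 and 13.0 FPKM in Yki+Tai, compared with 11.6 and 8.18 in Yki and 19.97 and 13.0 in GFP. The part of blood cells in the basement membrane and immune values was not tested.

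Of the 18 measured leg disc genes, 8 (44.4%, against 3.45% of all genes) passed 2-fold upward and 1 (5.56%, against 2.1%) downward. Their median was 0.87. The summed level of the list was 102 FPKM in Yki+Tai, versus 65.7 in Yki, 368 in GFP and 269 in Yki+Tai-IR. The leg genes Sp1 and btd were at 12.4 and 1.57 FPKM in Yki+Tai, compared with 0.144 and 0.0381 in Yki and 43.9 and 6.6 in GFP. The forkhead genes fd96Ca and fd96Cb were listed at 0 in Yki, with 2.54 and 11.6 FPKM in Yki+Tai and 11.2 and 46.2 in GFP. These 4 genes were thus at or under 0.144 FPKM in Yki and below GFP in Yki+Tai. The Hox gene Antp was the lower member, at 10.9 FPKM in Yki+Tai, versus 25.0 in Yki and 22.2 in GFP. The hinge gene Lim1, which is on the leg list as well, was at 1.94 FPKM in Yki+Tai, compared with 0.0726 in Yki and 8.35 in GFP, so its count as a higher hinge gene moves with the leg list. The myoblast markers twi, Him and htl were at 3.81, 3.51 and 2.86 FPKM in Yki+Tai, versus 6.73, 7.55 and 5.04 in Yki and 22, 18.1 and 9.66 in GFP. Of 5 measured salivary gland markers 3 (60%, against 2.1% of all genes) passed 2-fold downward and 0 upward, and the median was -1.45. The 3 are Sgs7, Sgs8 and Sgs5, with 0, 1.01 and 0 estimated fragments in Yki+Tai and 4.96, 5.02 and 6.97 in Yki. Counting error is large at such levels, and the interval of the Sgs8 ratio to Yki ran from 0.0032 to 1.36. Of the 5, 1 reached the filter only through Yki, and over the 11 with any FPKM above 0 the median was -0.42. Of 10 fat body markers 2 (20%, against 2.1% of all genes) were lower and 0 higher, and the median was -0.26. Of the 10, 1 reached the filter only through Yki, and over the 19 with any FPKM above 0 the median was -0.040. Sgs7 was listed at 0 in Yki+Tai and in GFP, with 4.77 FPKM in Yki, and Lsp2 was at 3.99 FPKM in Yki+Tai, compared with 6.21 in Yki and 9.25 in GFP. With all the marker lists of other tissues and the heat shock list left out, 246 genes remained past 2-fold upward and 156 downward.

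Heat shock and chaperone genes numbered 24, with a median of 0.24. Past 2-fold upward were 8 (33.3%, against 3.45% of all genes) and downward 1 (4.17%, against 2.1%). Hsp22 was at 74.0 FPKM in Yki+Tai, versus 4.66 in Yki, 12.6 in GFP and 171 in Yki+Tai-IR, and Hsp26 at 585 FPKM, against 143 in Yki, 421 in GFP and 1064 in Yki+Tai-IR. The Yki library held the lowest level of both genes, and Yki+Tai-IR the highest. The constitutive chaperone genes Hsc70-4 and Hsp83 were at 3586 and 1441 FPKM in Yki+Tai, compared with 3043 and 1164 in Yki and 2901 and 1030.2 in GFP. Hsp70 copies are nearly identical, so their separate values are uncertain. Hsp68 was the highest of the list at a difference of 4.45, and Hsc70-2 was the lower one.

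Most genes on chromosome 4 and beside the centromeres of 2L, 2R and 3L had differences below 0. Chromosome 4 and the pericentric regions of the large chromosomes are packed as heterochromatin, in which HP1 coats active genes as well as repeats. The pericentric bounds were set after the values were seen, at 22 Mb and beyond on 2L, up to 5.4 Mb on 2R, 23 Mb and beyond on 3L, up to 4.2 Mb on 3R and 22.5 Mb and beyond on X, in dm6. Of the 167 measured genes of these regions 148 were below 0, 21 (12.6%, against 2.1% of all genes) were at least 2-fold lower, and their median was -0.60. They make up 2.14% of the measured genes and 12.8% of the lower ones. By region the median was -0.48 over 60 genes of chromosome 4, -0.56 over 25 of pericentric 2L, -0.81 over 34 of 2R, -0.85 over 24 of 3L and -0.62 over 9 of 3R. Those below 0 numbered 56, 24, 34, 23 and 5 in these 5 regions, so that on 3R 4 of 9 genes were above 0. In the X region 6 of 15 were below 0, with a median of 0.074, and the median over the remaining 7424 genes of the 5 arms, tai left out, was 0.0045.

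**Figure D4:**
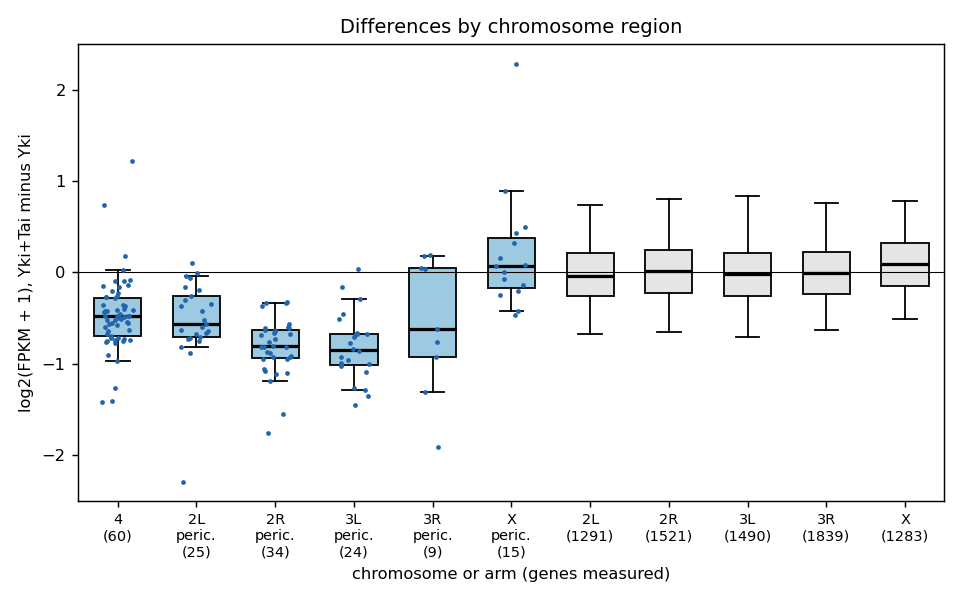
Difference in log2(FPKM + 1), Yki+Tai minus Yki, by chromosome region (number of genes in brackets; peric., pericentric). Boxes span the quartiles with the median as a bar, whiskers reach the 5th and 95th percentiles, and points are the genes of the blue regions; medians lie between -0.48 and -0.85 for chromosome 4 and the pericentric regions of 2 and 3, and near 0 elsewhere.

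The genes involved are well expressed and of many kinds. The median level of the 60 chromosome 4 genes was 61.7 FPKM in Yki+Tai, versus 85.1 in Yki, 62.9 in GFP and 65.4 in Yki+Tai-IR, and that of all 107 pericentric genes was 49.8 FPKM, against 84.9 in Yki, 57.6 in GFP and 74.3 in Yki+Tai-IR. Of the 167 genes 114 had their lowest level in Yki+Tai and 106 their highest level in Yki, which is 68.3% and 63.5%, against 30.4% and 20.4% of the other arm genes. In the medians the Yki library stood above GFP and the Yki+Tai library below it. Among genes at 10 FPKM or more in both libraries 48 of 50 on chromosome 4 and 79 of 88 in pericentric regions were below 0, so the same direction held among well-covered genes. In 4 classes of gene span the median of the set lay between -0.60 and -0.57, and that of all other genes between -0.075 and 0.094.

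Single members show the same order of libraries. The MAP kinase gene rl was at 74.0 FPKM in Yki+Tai, compared with 142 in Yki, 89.7 in GFP and 118 in Yki+Tai-IR, and the cohesin gene vtd at 49.8 FPKM, against 101 in Yki, 66.7 in GFP and 93.1 in Yki+Tai-IR. The catenin gene p120ctn was at 78.9 FPKM in Yki+Tai, versus 153 in Yki and 111 in GFP, and the kinase gene Haspin at 49.8 FPKM, against 106 in Yki and 57.6 in GFP. The mitochondrial ribosomal gene mRpS5 was at 93.3 FPKM in Yki+Tai, compared with 178 in Yki and 97.2 in GFP. All 5 genes stood below GFP in Yki+Tai and above it in Yki. The anterior gene ci, also on chromosome 4, was at 29.8 FPKM in Yki+Tai, versus 81.3 in Yki, 128 in GFP and 103 in Yki+Tai-IR, so that its highest level was in GFP, as for 17 of the 167 genes. Other lists hold such genes as their lowest members: Zyx102EF in the Hippo list, at 66.5 FPKM in Yki+Tai, compared with 113 in Yki and 85.7 in GFP, Tif-IA in ribosome biogenesis, at 68.7 FPKM, against 113 in Yki and 71.6 in GFP, and zfh2 in the hinge list, at 41.7 FPKM, against 69.9 in Yki and 58.1 in GFP. On chromosome 4, CG32021 was an exception at 65.8 FPKM in Yki+Tai, versus 39.1 in Yki and 26.4 in GFP.

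**Figure D5:**
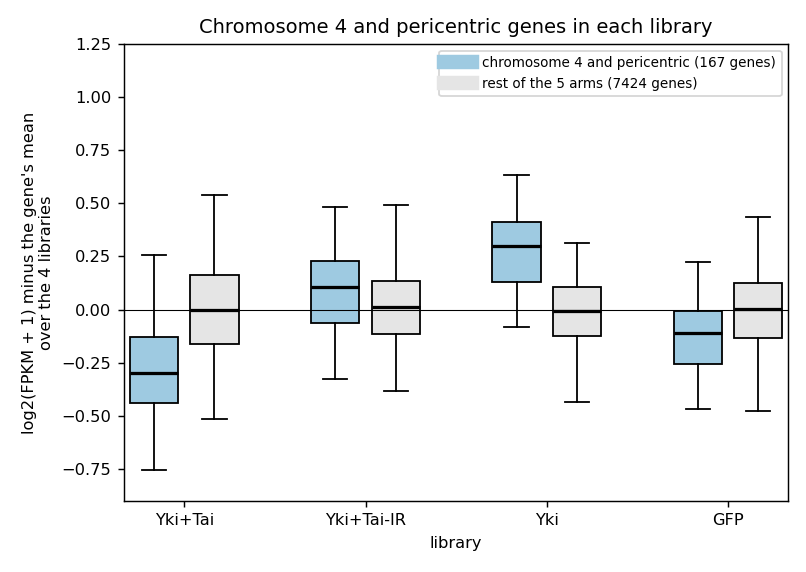
Level of each gene in each library relative to its own mean over the 4 libraries, in log2(FPKM + 1), for the 167 chromosome 4 and pericentric genes (blue) and 7424 other genes of the 5 arms, tai left out (grey). Boxes span the quartiles with the median as a bar and whiskers reach the 5th and 95th percentiles; the blue medians are -0.30 in Yki+Tai, 0.11 in Yki+Tai-IR, 0.30 in Yki and -0.11 in GFP, and the grey ones lie within 0.011 of 0.

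The X chromosome stood slightly to the other side. Of 1283 X-linked genes outside the pericentric region 772 were above 0, with a median of 0.090. The roX1 and roX2 RNAs, which act in males to raise the output of their X, were at 222.2 and 165 FPKM in Yki+Tai, compared with 324 and 270 in Yki and 136 and 103 in GFP. The labels do not give the sex of the larvae, and the part of the sex ratio in these values was not tested.

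Higher and lower genes sometimes lay side by side. Counting measured genes in their order along each arm, 28 runs of 2 or more neighbours held 65 of the higher genes, and 13 runs held 31 of the lower ones. Osi2, Osi6 and Osi7 with CG15589 formed the higher run with the most genes, over 52.9 kb, and the pigmentation family genes yellow-e3, yellow-e2 and yellow-e with the actin gene Act87E formed the lower run with the most genes, over 25.0 kb. The blood cell genes nimB4, He and nimC1 lay in a run of 3, as did Hsp67Bc, Hsp22 and Hsp26, and Hsc70-2, CG31157 and CG7966 in a lower one. The proneural pair ac and sc, and Cpr49Ag with Cpr49Ah, were lower runs of 2. Some runs follow gene families whose members share sequence, so their values are not independent.

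Of 26 germline and stem cell genes in the deposited values 15 were measured, against 7804 of 13673 over all genes. Of these 15 genes 0 passed 2-fold in either direction (5.55% of all genes did), and the median was -0.045. Adding 1 to these low levels bears on that count. On the higher side the PIWI-family gene piwi came closest, at 7.06 FPKM in Yki+Tai, versus 3.16 in Yki, 0.690 in GFP and 1.42 in Yki+Tai-IR. Without the added 1, its ratio to Yki was 2.23 (interval 1.74 to 2.89). The translational repressor gene nos was at 2.38 FPKM in Yki+Tai, compared with 1.02 in Yki, 0.0578 in GFP and 0.168 in Yki+Tai-IR, a level that the filter on the mean left out of the count. Of 25 piRNA pathway genes 0 were higher and 2 (8%, against 2.1% of all genes) lower, cuff and the methyltransferase gene Hen1. The first, cuff, was at 1.10 FPKM in Yki+Tai, versus 4.42 in Yki and 2.62 in GFP. Hen1 was at 5.90 FPKM, against 16 in Yki and 10.3 in GFP. AGO3, a PIWI-family gene of pericentric 3L on both lists, was at 2.56 FPKM in Yki+Tai, compared with 5.93 in Yki and 2.45 in GFP. Its ratio to Yki without the added 1 was 0.431 (interval 0.322 to 0.564).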

How the data were processed

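RNA from 4 pools of wing discs, 1 library per genotype, was sequenced by the authors, and the deposited values are FPKM per gene for 13990 genes. Per the submitters' processing notes the tools were CASAVA 1.4, TopHat2 2.0.12 and Cuffdiff 2.2.1, with the dm6 build; for the gene annotation and the options, nothing is given in the sources used here. Depth was estimated from the steps between low FPKM values: between 72.8% and 77.2% of the values of 971 to 1128 low genes per library came within 0.08 of a whole fragment, against 16% by chance. FPKM are not counts, and with 1 library per genotype no test was made. Differences were taken in log2(FPKM + 1) over genes whose mean reached 1 FPKM, without the 317 small-RNA genes. Coordinates came from Ensembl release 115 (BDGP6, the dm6 sequence), to which 13482 symbols were matched and 508 were not.

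Genes to name were set by rule: the 10 highest and 10 lowest, and the same at 10 FPKM or more in both libraries. The rule added the 4 members of each list with the largest absolute difference, the transgenes and compartment genes, and some Yki targets and germline genes. Not every gene under the rule is named here. Other genes serve as examples, picked once their values were known. The members and the 53 gene lists were chosen with earlier results of these data known, and the pericentric bounds, runs of neighbours and tanning genes after their values were seen. In all, 10 other settings and 1 chosen after seeing the data were computed. The calculation was tested on simulated data. Calculations ran in Python 3.11.15 with pandas 2.3.3, numpy 2.4.6 and scipy 1.17.1, and plots were drawn with matplotlib 3.10.9.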

Additional observations from a re-analysis of the deposited data

How the results depend on the processing

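With a pseudocount of 0.1 in place of 1, 390 genes passed 2-fold upward in Yki+Tai and 247 downward, and with a pseudocount of 5 there were 129 higher and 65 lower. At a mean of 5 FPKM or more 134 genes were higher and 111 lower, and the median difference of all genes was -0.012. Rescaling to the same FPKM sum moved that median to -0.031. Without the genes of chromosome 4 and the pericentric regions, an alternative chosen after seeing the data, 267 were higher and 143 lower. The cause of these shifts was not tested beyond what each setting does by construction. Over the 11 alternatives, values of named genes kept their direction and their side of 2-fold in 2309 cases, passed it newly in 18 and no longer passed it in 38; for lists, 1628 counts and medians stayed close to those reported and 88 moved, where close means a count within 1.5 times, or a median inside the 95% order-statistic interval of the reported median over the list. No paired analysis was possible because each genotype has 1 library, which also left no replicate to leave out. The estimated depth limits values near 3 fragments, and a difference between pools, batches or crosses cannot be told apart from the genotype.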

Other observations

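Genes of cuticle tanning and pigmentation, a group chosen after its values were seen, moved in both directions with added Tai. Ddc, the dopa decarboxylase that makes dopamine, was at 16.8 FPKM in Yki+Tai, versus 2.90 in Yki and 1.60 in GFP, a ratio to Yki of 5.78 (interval 4.30 to 7.84). Its neighbour in function amd, which is needed for cuticle formation, was at 24.6 FPKM in Yki+Tai, compared with 12.5 in Yki and 9.38 in GFP. Pu, the GTP cyclohydrolase that supplies the cofactor of tyrosine hydroxylase, was lower, at 1.4 FPKM in Yki+Tai, versus 8.89 in Yki and 4.33 in GFP. Tyrosine hydroxylase itself, ple, stayed under 1 FPKM in these 3 libraries. Of the yellow family, yellow-e3 was at 3.31 FPKM in Yki+Tai, compared with 12.8 in Yki and 15.3 in GFP, and yellow-h at 3.58 FPKM, against 11.1 in Yki and 5.35 in GFP, while yellow-b was at 30.1 FPKM, against 24.4 in Yki and 7.5 in GFP.

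Odorant-binding protein genes also differed between pools. Obp56d was at 9.96 FPKM in Yki+Tai, versus 0.555 in Yki and 1.64 in GFP, and at 443 FPKM in Yki+Tai-IR, the highest of the 4 libraries. This list has 11 measured genes, of which 1 (9.09%, against 3.45% of all genes) passed 2-fold upward and 2 (18.2%, against 2.1%) downward. Of the 11, 1 reached the mean of 1 FPKM only through Yki+Tai and 1 only through Yki.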
